A study of Mus musculus with 10 samples.

Results

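Potassium channel genes were described in single nuclei of mouse hippocampus and cortex. The members were all genes of the table whose symbol starts with Kcn, other than Kcnj10, with at least 50 UMIs summed over the labelled libraries. A UMI (unique molecular identifier) marks one captured RNA molecule. The rule kept 64 of 23589 genes, out of 91 Kcn rows, of which 26 fell under the minimum. Just inside the minimum stood Kcnk6 with 51 UMIs and Kcng3 with 53, and just outside it Kcne4 with 49 and Kcnn3 with 48. The nuclei came from frozen, archived brain tissue of C57BL/6 mice with no treatment or allele named in the labels, and were profiled by DroNc-seq, in which nuclei are enclosed with barcoded beads in droplets. Each region had 5 libraries, and the cortex was dissected as prefrontal cortex. Summing the libraries of a region with the same title number left 4 units for each, numbered 0 to 3. The series names 4 mice, but nothing ties a number to a mouse, so p-values rest on the spread between units, which may be technical. The edgeR fits share their estimates of spread between genes. A very small p therefore does not measure the spread of that gene alone over its units.

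Potassium channels let potassium leave the cell and so set the resting potential, end action potentials and limit firing rates. Voltage-gated channels are built from pore subunits of the Kcna, Kcnb, Kcnc, Kcnd, Kcnh and Kcnq groups, and the Kcnf, Kcng, Kcns and Kcnv subunits do not conduct alone but modify Kcnb channels. Kcnab and Kcnip genes encode cytoplasmic accessory subunits. Kcnj genes encode inward rectifiers, Kcnk genes the leak channels with paired pore domains, and Kcnma, Kcnn and Kcnt genes the channels opened by calcium or sodium. In the brain, fast-spiking interneurons are known for Kcnc channels and astrocytes for leak and inward rectifier channels.

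The 64 members, all protein-coding, held 79101 UMIs, which is 0.391% of all UMIs. The count per member ran from 51 to 5820, and 26 members had at least 1000. The leading subfamilies were Kcnq with 10821 UMIs over 4 members, Kcnh with 10302 over 6 and Kcnc with 9596 over 4. Depth per library ran from 1443244 to 2600788 UMIs over 11624 nuclei. Libraries shared at most 3 barcodes. Hippocampus unit 0 stood apart: 32.2% of its nuclei fell in unnamed clusters, against 6.64% to 7.97% in hippocampus units 1 to 3, and it held 141 of the 163 hippocampal nuclei with a layer 2-4-like profile. The cortical unit 0 had a median of 2505 UMIs per nucleus, against 1106.5 to 1306 in cortex units 1 to 3. The labelled regions could be checked against markers: the summed level of the 7 dentate granule markers was 481 to 572 CPM (UMIs scaled to the same total for every sum) in hippocampus units and 178 to 215 in cortex units. The summed level of the 6 layer 2-4 markers was 221 to 478 in hippocampus units and 660 to 792 in cortex units. The thalamic and midbrain lists were also higher in hippocampus units, at 461 to 903 and 103 to 156 CPM, against 137 to 210 and 10.5 to 19.5 in cortex units.

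Nuclei were clustered with every Kcn gene left out and clusters were named from marker lists, so that class contrasts of the members do not rest on the members themselves. The names carry "-like" because they were rebuilt from markers. Levels below are CPM, the summed UMIs of a gene in a unit, or in a class within a unit, on that scale, and levels are compared within a gene and not between genes. Of the 64 members, 44 had a promoter window in the RefSeq table, build GRCm38.p6, which spans 250 bases before to 50 after an annotated start. The windows of 5 members are printed because 4 of them carry the contrast between inhibitory and excitatory neurons and Kcnj8 was high in a vascular class. Each is the most upstream start of its gene in the RefSeq table, 5′ to 3′ on the gene's strand. The GENCODE M21 span of Kcns3 begins further upstream, at 11151056, inside its printed window. Capitals mark matches to the searched motifs, in these windows all to GGGCGG or its reverse complement. They lie at chr7:46396218-46396517 (plus strand), chr10:112269767-112270066 (plus strand), chr12:11150793-11151092 (minus strand), chr11:33993144-33993443 (minus strand) and chr6:142571565-142571864 (minus strand).
Kcnc1: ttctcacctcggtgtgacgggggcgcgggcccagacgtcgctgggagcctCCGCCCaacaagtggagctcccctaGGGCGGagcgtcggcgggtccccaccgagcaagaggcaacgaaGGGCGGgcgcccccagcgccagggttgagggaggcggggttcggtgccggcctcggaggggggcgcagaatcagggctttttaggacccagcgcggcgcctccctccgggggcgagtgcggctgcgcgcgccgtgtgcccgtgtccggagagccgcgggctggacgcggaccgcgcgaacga
Kcnc2: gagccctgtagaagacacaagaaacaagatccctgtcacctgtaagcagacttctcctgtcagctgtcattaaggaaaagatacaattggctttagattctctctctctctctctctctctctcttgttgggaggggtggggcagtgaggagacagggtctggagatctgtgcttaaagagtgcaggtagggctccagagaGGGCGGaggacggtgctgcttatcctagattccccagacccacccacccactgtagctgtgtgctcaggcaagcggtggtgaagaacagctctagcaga
Kcns3: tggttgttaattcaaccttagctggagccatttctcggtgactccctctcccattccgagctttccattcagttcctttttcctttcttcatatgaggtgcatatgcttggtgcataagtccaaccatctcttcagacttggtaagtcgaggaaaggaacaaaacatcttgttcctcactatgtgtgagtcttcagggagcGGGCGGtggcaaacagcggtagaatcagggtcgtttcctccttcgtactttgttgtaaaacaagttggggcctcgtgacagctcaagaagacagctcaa
Kcnip1: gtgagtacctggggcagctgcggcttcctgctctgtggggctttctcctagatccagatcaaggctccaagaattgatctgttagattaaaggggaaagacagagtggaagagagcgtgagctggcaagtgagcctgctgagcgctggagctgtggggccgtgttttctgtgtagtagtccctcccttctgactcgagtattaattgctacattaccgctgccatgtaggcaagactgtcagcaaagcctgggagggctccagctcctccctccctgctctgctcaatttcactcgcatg
Kcnj8: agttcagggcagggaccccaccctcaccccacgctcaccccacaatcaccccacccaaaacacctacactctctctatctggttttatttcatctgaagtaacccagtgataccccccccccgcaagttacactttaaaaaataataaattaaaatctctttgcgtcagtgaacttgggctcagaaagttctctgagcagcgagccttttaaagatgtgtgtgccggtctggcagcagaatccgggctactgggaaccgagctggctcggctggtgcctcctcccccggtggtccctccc

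Short motifs (5 in all) were searched on both strands. The letters GGGCGG stood in 56.8% of the members' windows and in 35.92% of the windows of 27025 genes. The letters TATAAA stood in 4.5% of the members' windows and in 14.16% of all. The letters CACGTG stood in 4.5% of the members' windows and in 7.24% of all. The letters TAATTA stood in none of the 44 members' windows and in 5.32% of all. The letters TGACGTCA stood in none of the 44 and in 1.85% of all. The members' windows had a median of 12.5 CpG dinucleotides and 62.2% GC, against 7 and 52.7% over all genes. Within the printed windows the Kcnc1 window held 41 CpG and 3 GGGCGG matches, while the Kcnc2 window held 3 CpG and the Kcnip1 window 7. The GC content was 74.7% in the Kcnc1 window, 52.7% in Kcnc2, 47.0% in Kcns3 and 54.3% in Kcnip1. A match is a description of letters and not of binding, and the start in use was not measured.

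The comparison of inhibitory with excitatory neuron-like nuclei asked which channel genes separate the neuron classes of the same libraries. Kcnc1, Kcnc2, Kcns3 and Kcnip1 were higher in inhibitory nuclei in every unit, with no overlap between classes, as in 3.98% of all genes tested. Kcnh3, Kcnv1, Kcnip3 and Kcnj6 were lower. The class held 198 inhibitory nuclei in hippocampus and 587 in cortex, and 2506 and 4079 excitatory ones. Thalamic-like and midbrain-like neurons were in neither class. Of 43 members that passed the filter on low counts, 8 were called higher and 13 lower at an adjusted p under 0.05 (edgeR quasi-likelihood test, unit as a block, Benjamini-Hochberg over 8840 genes). Over all genes tested 19.7% were called, 9.47% higher and 10.3% lower, a share that includes the genes which defined the clusters.

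Kcnc1, at chromosome 7 from 46396497 to 46438704 (GRCm38), encodes a fast, high-threshold pore subunit. Its level was 615 to 1071 with a median of 673 in inhibitory nuclei of the 8 units, against 126 to 169 with a median of 147 in excitatory nuclei. The lowest inhibitory unit was above the highest excitatory unit by far. Its log2 fold change was 2.28 ± 0.10 (SE; edgeR adjusted p = 1.8e-18). Kcnc2, its relative, ran from 115 to 228 with a median of 204 in inhibitory nuclei, against 43.6 to 62.5 with a median of 56.8 in excitatory nuclei, a log2 fold change of 1.75 ± 0.13. Hippocampal units 1 and 2 gave the low inhibitory values of Kcnc2, 116 and 115. High levels of both genes were not limited to inhibitory nuclei. Thalamic-like nuclei had 395 for Kcnc1 and 506 for Kcnc2 in 1 unit. Midbrain-like nuclei had 269 to 647 for Kcnc1 and 57.1 to 105 for Kcnc2 in 4 units. Kcnc4, from the same subfamily, was not called, at 22.3 ± 6.59 in inhibitory and 31.7 ± 7.08 in excitatory nuclei (SD, n = 8 units each).

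Kcns3, a modifier subunit of Kcnb channels at chromosome 12 from 11090202 to 11151056, had 23.8 to 89.3 with a median of 34.1 in inhibitory nuclei, against 0.783 to 5.45 with a median of 1.95 in excitatory nuclei. Its log2 fold change was 4.05 ± 0.35 (edgeR adjusted p = 1.8e-10), on 56 UMIs in inhibitory nuclei. Kcnip1, a calcium-binding accessory subunit of Kcnd channels at chromosome 11 from 33629339 to 33993152, had 29.3 to 151 with a median of 69.7 in inhibitory nuclei, against 2.74 to 8.19 with a median of 3.86 in excitatory nuclei, a log2 fold change of 4.13 ± 0.29. Excitatory levels of both genes were close to the resolution of single UMIs. Kcnip1 also had 60.7 ± 39.4 in oligodendrocyte precursor-like nuclei (n = 6 units) and 47.0 ± 26.1 in midbrain-like nuclei (n = 4 units). Kcnip1 overlaps Kcnmb1 on the opposite strand, and Kcnmb1 had 28 UMIs in all. The other Kcnip members did not share the direction: Kcnip3 fell, at 25.7 ± 24.3 in inhibitory nuclei and 58.2 ± 17.5 in excitatory nuclei (log2 fold change -1.15 ± 0.24), and Kcnip4 and Kcnip2 were not called.

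**Figure D1:**
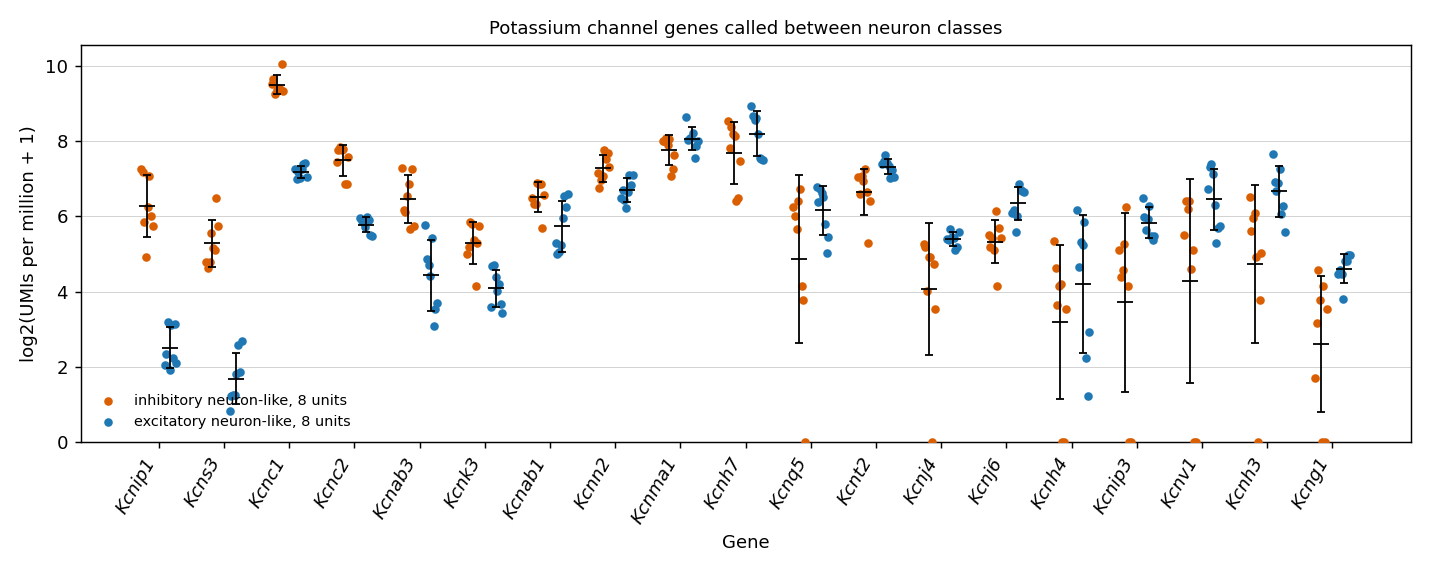
Level of 19 members called between neuron classes, as log2(CPM + 1), with one point per unit, inhibitory neuron-like left and excitatory neuron-like right of each gene, and the mean with its SD over 8 units. Kcnip1, Kcns3, Kcnc1 and Kcnc2 show no overlap between classes. The others overlap when the units are pooled, and the points do not show which values come from the same unit.

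Among the cytoplasmic subunits, Kcnab3 rose with 94.8 ± 42.4 in inhibitory nuclei against 24.8 ± 16.0 in excitatory nuclei (log2 fold change 1.72 ± 0.20), and Kcnab1 rose with 92.9 ± 23.4 in inhibitory against 57.8 ± 27.3 in excitatory nuclei (0.93 ± 0.18). Kcnk3, a leak channel, rose by 1.23 ± 0.25 and Kcnn2, a small-conductance calcium-activated channel, by 0.57 ± 0.13 on the log2 scale. The 13 that fell included Kcng1, Kcnh3, Kcnv1, Kcnip3, Kcnh4, Kcnj6, Kcnj4, Kcnt2, Kcnq5, Kcnh7 and Kcnma1. Kcnh3 had a median of 39.5 in inhibitory nuclei and 110 in excitatory nuclei (log2 fold change -1.27 ± 0.18), and Kcnv1, another modifier subunit, 42.5 ± 34.4 in inhibitory and 98.7 ± 51.2 in excitatory nuclei (-1.20 ± 0.18). With the units pooled, every one of the 13 had levels that overlapped between classes. Compared within each unit, Kcnh3, Kcnv1, Kcnip3, Kcnj6, Kcnj4, Kcnt2 and Kcnh7 were lower in inhibitory nuclei in every unit. Kcng1, Kcnh4, Kcnq5 and Kcnma1 were not lower in every unit. Leaving out 1 unit ended the call of Kcng1 (cortex 0, -1.05), Kcnq5 (cortex 0, 1 or 2, -0.58 to -0.44), Kcnj4 (cortex 2 or 3 or any hippocampus unit, -0.69 to -0.52) and Kcnma1 (cortex 0 or 3 or hippocampus 0, 1 or 2, -0.33 to -0.22). DESeq2 did not call Kcnh4, Kcnj4 or Kcnma1, and with title numbers 1 to 3 only Kcng1 was at -0.77 ± 0.43 and not called. Kcnmb2, a subunit of the large-conductance Kcnma1 channel, did not pass the filter on low counts and was named after its values were seen: it had 10.5 to 67.3 with a median of 36.3 in inhibitory nuclei and 0 to 4.36 with a median of 1.03 in excitatory nuclei. Markers of the other class were present in these sums: the 6 excitatory markers summed to 599 to 1298 in hippocampal and 1077 to 1477 in cortical inhibitory nuclei, against 1996 to 2906 in excitatory nuclei, and the 6 inhibitory markers to 51.3 to 115 in excitatory nuclei. Their part in the levels was not tested.

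Within the inhibitory class Kcnc1 was highest in Pvalb-like interneurons. Over the 4 units with at least 20 such nuclei, all cortical, it had 1372 ± 266 there (SD, n = 4 units), against 414 ± 43.3 in Adarb2/Vip-like interneurons (n = 6 units). Kcnc2 had 392 ± 80.6 in Pvalb-like and 182 ± 25.1 in Sst-like nuclei (n = 4 units each). Kcnab3, Kcnab1 and Kcnip2 were also high in Pvalb-like nuclei, at 163 ± 57.3, 155 ± 42.6 and 129 ± 39.5. Kcnip2 was 23.7 ± 21.8 in Sst-like nuclei. Kcnf1 went the other way, at 6.58 ± 13.2 in Pvalb-like and 85.5 ± 54.8 in Sst-like nuclei. Kcns3 and Kcnmb2 were of like level in these types, with Kcns3 at 41.4 ± 14.4 in Pvalb-like and 48.9 ± 21.5 in Sst-like nuclei. These are levels with no test, since the types come from the clustering.

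Outside the neurons few members stood out. Kcnj8, the pore of vascular ATP-sensitive channels, had 67 to 366 with a median of 172 in endothelial-like nuclei of 8 units (260 UMIs), and the next named class compared, astrocyte-like, averaged 5.77 ± 8.76. Every endothelial-like unit was above every astrocyte-like unit. The 6 mural markers were present in the same endothelial-like nuclei, at a summed level of 7823 to 9861 in hippocampal and 5655 to 8400 in cortical units, beside 14701 to 15150 in hippocampal and 10916 to 13677 in cortical units for the 6 endothelial markers, so the 2 vascular types cannot be told apart within this class. A separate cluster of 16 nuclei scored highest for mural markers (0.779, excitatory next at 0.735) and stayed unnamed. Its Kcnj8 level is not given here. Kcnk1, a leak channel, had 206 to 501 with a median of 372 in astrocyte-like nuclei, and the next main class, thalamic-like, had 113 in 1 unit. Dentate granule-like nuclei, a type within the excitatory class, had 189 to 212 and so overlapped with the astrocyte-like units. Kcnj16, an inward rectifier subunit, had 0 to 114 with a median of 60.5 in astrocyte-like nuclei, and averaged 1.25 ± 1.16 in excitatory nuclei. Oligodendrocyte precursor-like nuclei overlapped with the astrocyte-like ones, at 0 to 112 with a median of 32.7 over 6 units.

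Kcna1, a low-threshold axonal channel subunit, was highest in oligodendrocyte-like nuclei. Its 4 hippocampal units ran from 624 to 1067 and averaged 872 ± 190 there, on 210 UMIs, against 280 ± 28.4 in inhibitory and 257 ± 20.8 in excitatory nuclei (n = 8 units each). No neuronal unit reached the lowest oligodendrocyte-like unit. Kcna6, from the same subfamily, had 133 ± 56.8 in oligodendrocyte-like nuclei, against 39.8 ± 15.8 in excitatory nuclei. Kcnt1 and Kcnb2, among other members, had 0 UMIs in the same nuclei, which held 251744 UMIs in all.

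The members' summed level was 5904 ± 504 CPM in cortical Pvalb-like nuclei (n = 4 units). It was 806 ± 232 in hippocampal and 1554 ± 402 in cortical endothelial-like nuclei, and 2092 ± 63.1 in hippocampal oligodendrocyte-like nuclei (n = 4 units each). Cortical microglia-like nuclei gave 4057 ± 346, close to the 4213 ± 468 of cortical excitatory nuclei. The 6 excitatory markers summed to 1558 to 1911 in those microglia-like nuclei, and no microglial level is described here. In endothelial-like nuclei the same markers summed to 207 to 487 in hippocampus and 577 to 940 in cortex, in hippocampal oligodendrocyte-like nuclei to 248 to 692, and in astrocyte-like nuclei of both regions to 705 to 1278.

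**Figure D2:**
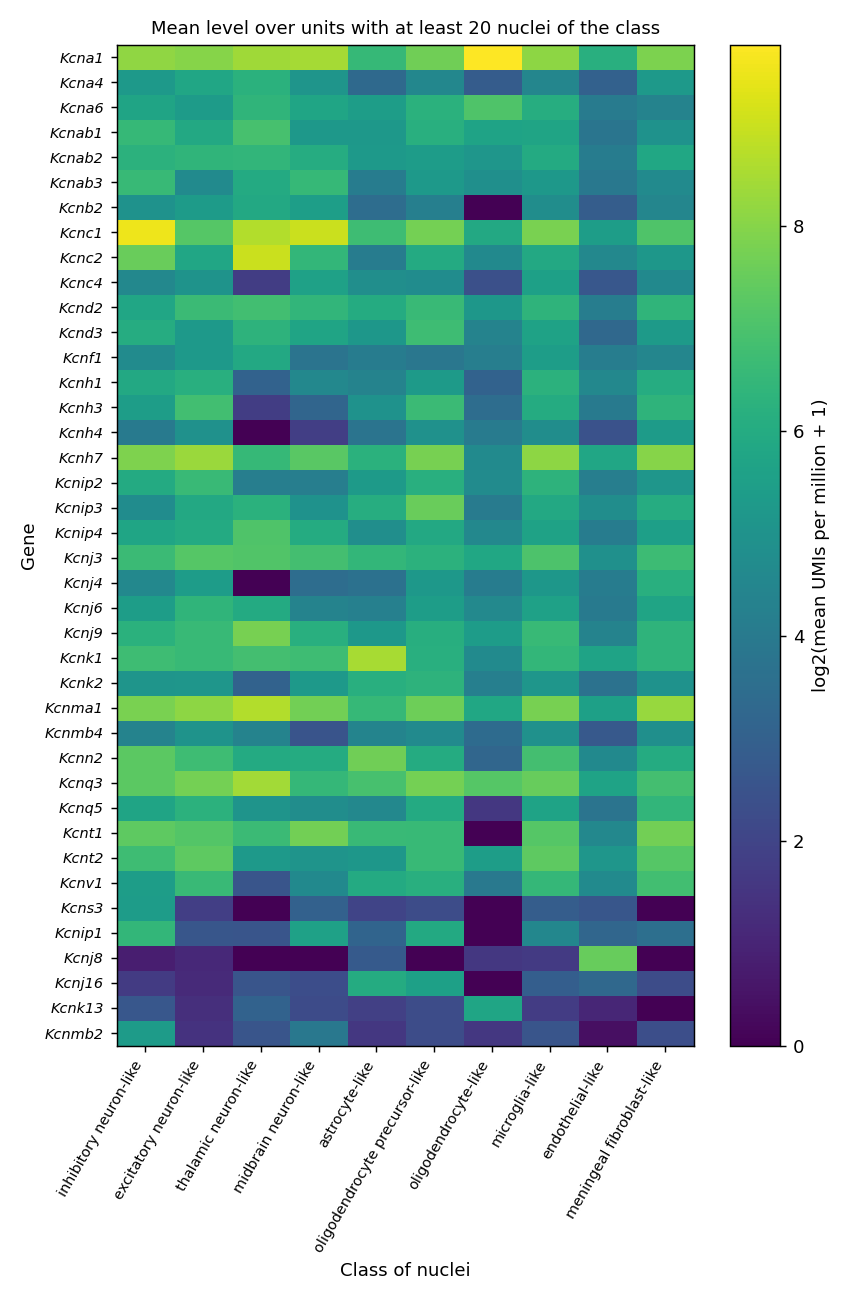
Mean level of 40 members in 10 classes of nuclei, as log2(mean CPM + 1), over units with at least 20 nuclei of the class. Shown are 34 members with at least 500 UMIs and 6 others with fewer UMIs. Kcnj8 stands out in the endothelial-like column and Kcna1 in the oligodendrocyte-like one. Kcnc1 is highest in the inhibitory column, with the midbrain-like and thalamic-like columns next. Excitatory markers were present in the microglia-like and meningeal fibroblast-like nuclei.

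Patterns over the 10 class means were most alike for Kcna4 and Kcnma1 (Pearson r of log2(level + 1) 0.955), Kcnh3 and Kcnv1 (0.953) and Kcnip4 and Kcnj9 (0.951), among 37 members with at least 500 UMIs. The classes share their libraries, and the low levels of vascular and oligodendrocyte-like nuclei weigh on each of these values.

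Dentate granule-like against CA1 pyramidal-like nuclei was a contrast between 2 of the principal cell types of the hippocampus, over 1183 and 276 hippocampal nuclei. Kcnc4, Kcnk1, Kcnj4, Kcna1 and Kcnc1 were higher in dentate granule-like nuclei and Kcnh7, Kcnc2 and Kcnn2 lower, each with no overlap between units, as in 22.7% of all genes tested. Of 27 members that passed the filter 11 were called higher and 8 lower, and over all 5654 genes tested 23.4% were called, 11.3% higher and 12.1% lower (edgeR, unit as a block). DESeq2 called 11 members, 7 higher and 4 lower, and 11% of the same genes. The median depth per nucleus was 1084 UMIs in dentate granule-like and 1988 in CA1-like nuclei.

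Kcnc pore subunits split between the cell types. Kcnc1 had 187, 229, 208 and 173 CPM in dentate granule-like nuclei of units 0 to 3, against 54.2, 31.5, 84.4 and 46.0 in CA1-like nuclei (1.79 ± 0.25). Kcnc2 had the opposite direction, with 14.4, 3.01, 12.6 and 5.03 in dentate granule-like nuclei and 54.2, 82.0, 56.3 and 76.6 in CA1-like nuclei (-3.02 ± 0.50). Kcnc4, at chromosome 3 from 107438303 to 107459552, had 79 UMIs in dentate granule-like nuclei and 2 in CA1-like nuclei, a ratio of levels of 16.4 with an exact 95% counting interval of 4.39 to 138.

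Kcnh7, an erg-type channel gene at chromosome 2 from 62693414 to 63184287 and the member with the most UMIs, had 38.3, 39.1, 66.3 and 47.8 in dentate granule-like nuclei, against 280, 410, 535 and 439 in CA1-like nuclei. Its log2 fold change was -3.22 ± 0.19 (edgeR adjusted p = 3.08e-58), the lowest of the members tested. CA3-like nuclei were at 33.3 ± 30.4, near the dentate level, and the cortical layer types between 392 ± 42.7 and 477 ± 97.6 (n = 4 units each). Kcnn2 had 55.1, 66.2, 47.4 and 50.3 in dentate granule-like nuclei and 199, 246, 218 and 271 in CA1-like nuclei (-2.21 ± 0.22). The M-current subunit Kcnq3 fell by less, by 0.55 ± 0.16, and so did Kcnma1, Kcnab1 and Kcnab2.

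Kcnk1 had 194, 189, 212 and 194 in dentate granule-like nuclei, against 36.1, 50.5, 28.1 and 40.9 in CA1-like nuclei (log2 fold change 2.19 ± 0.27). Kcna1 had 333, 334, 373 and 400 in dentate granule-like nuclei, against 126, 82.0, 106 and 91.9 in CA1-like nuclei (1.75 ± 0.20). Among the inward rectifiers Kcnj4, Kcnj6 and Kcnj3 rose, by 2.19 ± 0.47, 1.02 ± 0.24 and 0.58 ± 0.18. Kcnd3 and Kcnip3, a transient-current pore subunit and an accessory subunit, rose by 1.89 ± 0.50 and 1.78 ± 0.45, while Kcnd2 and Kcnip2 were not called, with Kcnd2 at 115 to 212 in dentate granule-like and 135 to 239 in CA1-like nuclei, and Kcnip2 at 136 to 177 in dentate granule-like and 120 to 181 in CA1-like nuclei. Calls of several members were lost when 1 unit was left out: Kcnd3 without unit 3 (1.32 ± 0.53), Kcnt2 without unit 0 (0.59 ± 0.24) or unit 2 (0.56 ± 0.25), Kcnj3 without unit 0 (0.47 ± 0.20) or unit 1 (0.51 ± 0.21), and Kcnab2 without unit 0 (-0.50 ± 0.26). The same held for Kcnma1 without unit 0 (-0.43 ± 0.20) or unit 3 (-0.47 ± 0.22), Kcnq3 without unit 3 (-0.47 ± 0.20) and Kcnab1 without unit 0, 1 or 3 (-0.69 to -0.62). DESeq2 called none of these 7, with Kcnd3 at 2.01 ± 0.77 (adjusted p = 0.0727), nor Kcnip3 (1.88 ± 0.69, adjusted p = 0.0551). Kcna6 did not pass the filter, with 35 UMIs in dentate granule-like and 0 in CA1-like nuclei.

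**Figure D3:**
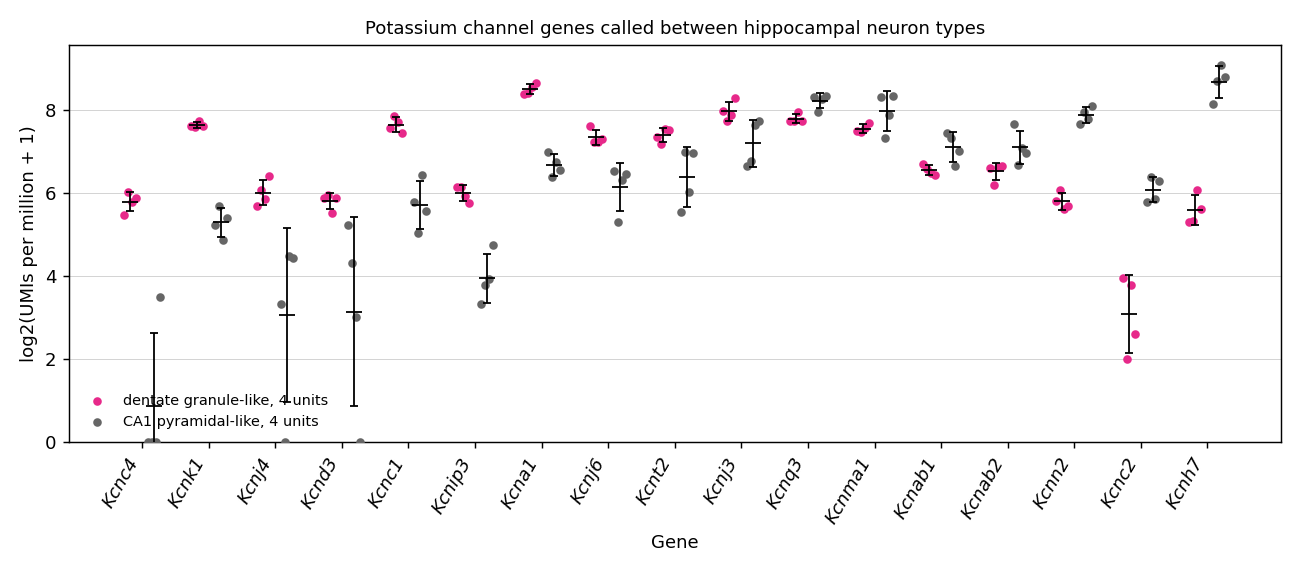
Level of 17 members called between hippocampal neuron types, as log2(CPM + 1), with one point per unit, dentate granule-like left and CA1 pyramidal-like right of each gene, and the mean with its SD over 4 units. Kcnc4 leads at the left end and Kcnh7 has the lowest fold change.

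Hippocampus against cortex over all nuclei showed more members lower than higher. Kcnd2 and Kcnab1 rose in hippocampus, and Kcnv1, Kcnf1, Kcnh1, Kcnh7 and Kcnq5 fell, each with separate units. Of 59 members tested 6 rose and 15 fell, and 17.7% of 12855 genes were called, 9.19% higher and 8.53% lower. Hippocampus units all lay above cortex units for 8 of the 59 members and all below for 13. Units did not overlap for 21.4% of all genes tested, called or not. Of the 21 called members 18 had separate units. The members' median log2 fold change was -0.21, against -0.01 over all genes tested. In sums over all nuclei, fewer nuclei of a type and less RNA per nucleus are mixed. Excitatory neuron-like nuclei were 35.8% to 51.8% of the nuclei in hippocampus units and 61.8% to 70.8% in cortex units. Astrocyte-like nuclei were 7.8% to 15.3% in hippocampus units and 1.4% to 5.6% in cortex units. The part of this make-up in the values over all nuclei was not tested, and comparisons within classes are given below. Without thalamic-like and midbrain-like nuclei 8 rose and 14 fell, where 19.1% of 12834 genes were called, and Kcna4, Kcnj4 and Kcns1 were not among the called.

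Kcnd2, the pore subunit of dendritic transient current, had 72.0, 121, 127 and 108 CPM in hippocampus units 0 to 3, against 49.9, 66.9, 64.6 and 66.4 in cortex units 0 to 3. Unit 0 was the lowest of each region, and the log2 fold change was 0.77 ± 0.18 (edgeR adjusted p = 0.00974). Its accessory gene Kcnip2 rose with it, by 0.41 ± 0.13, and the cytoplasmic Kcnab1 and Kcnab2 by 0.77 ± 0.12 and 0.38 ± 0.10. Kcna4 also rose (0.63 ± 0.19), with units that overlapped. The call of Kcnip2 was lost without any 1 unit of number 1, 2 or 3 (0.36 to 0.42), that of Kcnab2 without cortex 1 or 3 or hippocampus 2 or 3 (0.34 to 0.39), and that of Kcna4 without any 1 unit but hippocampus 0 (0.53 to 0.66). DESeq2 did not call Kcnip2 (0.41 ± 0.16, adjusted p = 0.0526).

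Kcnh7 had 220, 142, 136 and 158 in hippocampus units, against 412, 356, 328 and 344 in cortex units. Of 6 Kcnh members 4 fell and none rose: Kcnh7 (-1.13 ± 0.14), Kcnh1 (-1.19 ± 0.17), Kcnh5 (-1.10 ± 0.21) and Kcnh3 (-1.10 ± 0.26). Of the 7 tested Kcnf, Kcng, Kcns and Kcnv members 3 fell. Kcnv1, at chromosome 15 from 45106284 to 45114920, had 53.7, 31.4, 36.0 and 35.1 in hippocampus and 83.5, 139, 139 and 127 in cortex (-1.61 ± 0.20), and Kcnf1 fell by 1.24 ± 0.23 and Kcns1 by 0.98 ± 0.27. The call of Kcns1 was lost without cortex 1 or 3 or hippocampus 1 or 2 (-0.99 to -0.83). Both sodium-activated channels fell, Kcnt1 by 0.96 ± 0.20 and Kcnt2 by 0.68 ± 0.11. Kcnq5, a subunit of M-type channels, fell too (-1.12 ± 0.21).

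Kcna6 fell by 0.58 ± 0.14 on the log2 scale. The inward rectifiers Kcnj4 and Kcnj9 fell by 0.53 ± 0.13 and 0.53 ± 0.16, and Kcnma1 by 0.47 ± 0.14. Kcnj9 and Kcnma1 had units that overlapped between regions, and their calls were lost when 1 unit was left out, Kcnj9 without any 1 unit of number 1, 2 or 3 (-0.57 to -0.43) and Kcnma1 without cortex 0, 1 or 2 or hippocampus 1, 2 or 3 (-0.51 to -0.36). None of the 6 tested Kcnk members and neither Kcnn member was called. Kcng3, Kcnj13, Kcnk13, Kcnk6 and Kcnk9, with at most 4.15 CPM on average in either region, did not pass the filter.

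**Figure D4:**
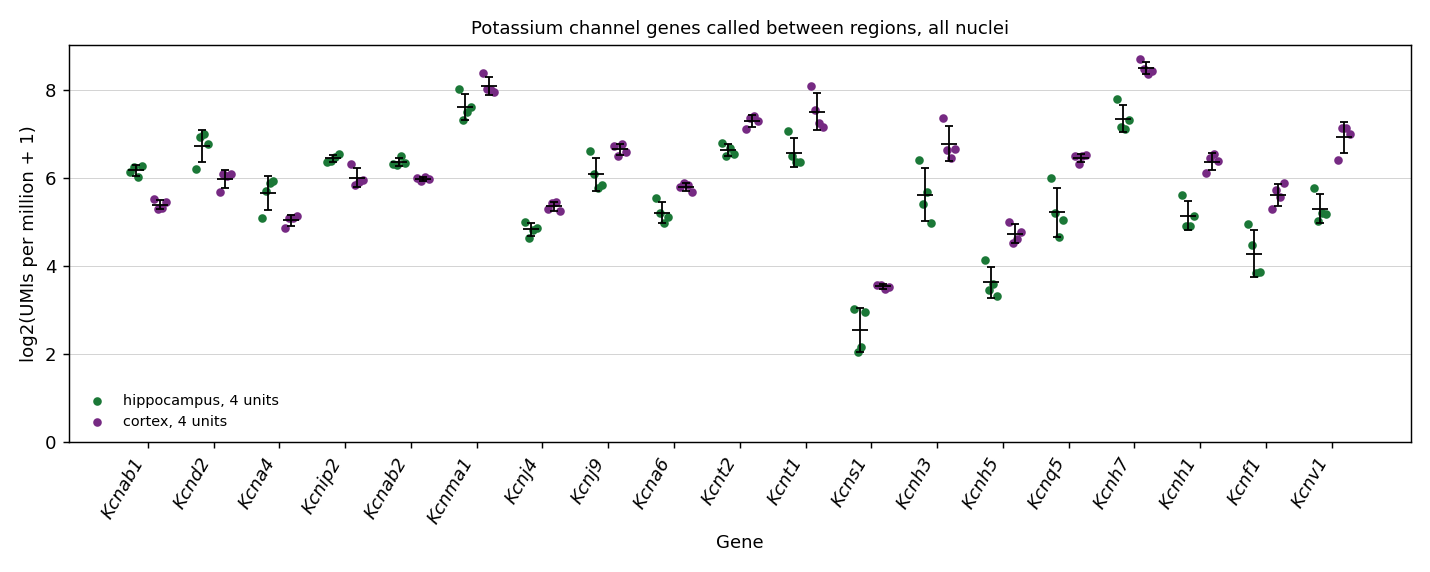
Level of 19 members called between regions in all nuclei, as log2(CPM + 1), with one point per unit, hippocampus left and cortex right of each gene, and the mean with its SD over 4 units. The 5 members at the left were higher in hippocampus and the other 14 lower.

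Within excitatory neuron-like nuclei 10 of 52 members tested rose in hippocampus and 8 fell, and 16.2% of 10973 genes were called, 8.7% higher and 7.52% lower. Hippocampus units all lay above cortex units for 12 of the 52 members and all below for 7. Units did not overlap for 20.2% of all genes tested, called or not. Of the 18 called members 15 had separate units. The region's classes hold different cells: of hippocampal excitatory nuclei 1183 were dentate granule-like and 276 CA1-like, against 2 and 4 in cortex, and 1419 cortical nuclei were layer 2-4-like, against 163 in hippocampus. The dentate granule markers summed to 630 to 826 in hippocampal and 169 to 234 in cortical excitatory nuclei, and the layer 2-4 markers to 123 to 577 in hippocampal and 729 to 876 in cortical ones. The part of this make-up in the regional values was not tested, and the levels per type are given beside them.

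Kcnab1 had 61.2, 92.8, 74.5 and 96.0 in hippocampal excitatory nuclei, against 38.0, 30.7, 32.1 and 36.9 in cortical ones (log2 fold change 1.24 ± 0.18), with 139 ± 32.6 in CA1-like, 92.5 ± 7.69 in dentate granule-like and 13.3 ± 7.22 in layer 2-4-like nuclei (SD, n = 4 units each). Kcnd2 and Kcnip2, which form channels together, rose by 1.18 ± 0.23 and 0.95 ± 0.16. Kcna4 rose by 1.01 ± 0.24, Kcnj6 by 0.78 ± 0.15, Kcnab2 by 0.77 ± 0.12, Kcnj3 by 0.60 ± 0.17 and Kcnk1 by 0.53 ± 0.15. The calls of Kcnj3 without hippocampus 2 or 3 (0.57 and 0.47) and of Kcnk1 without cortex 1 or hippocampus 1, 2 or 3 (0.49 to 0.53) were lost. Kcng2, a modifier subunit, rose by 1.51 ± 0.49 with units that overlapped, and stood at 28.2 ± 10.2 in dentate granule-like and 2.85 ± 3.33 in CA1-like nuclei; its call was lost without cortex 0, 1 or 2 or hippocampus 1, 2 or 3 (lowest 1.30, without cortex 1).

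Of those that fell, Kcnv1 had 77.6, 38.4, 51.0 and 52.4 in hippocampal excitatory nuclei, against 106, 158, 166 and 140 in cortical ones (-1.31 ± 0.20). Its level was 41.8 ± 14.6 in dentate granule-like and 39.7 ± 16.4 in CA1-like nuclei, and in cortex 171 ± 45.7 in layer 2-4-like, 121 ± 16.8 in layer 6-like and 42.7 ± 13.6 in layer 5-like nuclei, the last as low as the hippocampal types. Kcnf1 fell by 1.31 ± 0.22 and Kcna6 by 1.05 ± 0.16. Kcnh7 had 292, 187, 184 and 181 in hippocampal excitatory nuclei, against 493, 408, 379 and 393 in cortical ones (-0.95 ± 0.15), although CA1-like nuclei averaged 416 ± 105, the cortical level. Kcnh1, Kcnh5 and Kcnq5 fell by 0.87 ± 0.20, 1.23 ± 0.27 and 0.77 ± 0.23. Kcnt1 had 163, 61.9, 54.9 and 49.1 in hippocampal and 302, 190, 160 and 161 in cortical excitatory nuclei (-1.23 ± 0.32), with the value of hippocampus unit 0 inside the cortical range. It was 8.68 ± 4.24 in dentate granule-like nuclei and 285 ± 87.7 in layer 5-like nuclei. The call of Kcnt1 was lost without hippocampus 1, 2 or 3 (-1.12 to -1.05), and that of Kcnq5 without cortex 2 or 3 or hippocampus 1, 2 or 3 (-0.78 to -0.60). With units 1 to 3 only, 16 of 49 members tested rose and 16 fell, where 33% of 10600 genes were called.

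Inhibitory neuron-like nuclei gave no called member between regions out of 26 tested, with 5 at an unadjusted p under 0.05 (edgeR) and none called by DESeq2. Over all 5142 genes 0.408% were called, at an adjusted p under 0.05. The share of all genes at the unadjusted limit is not given here, so no excess can be read from the 5. Among the 5 were Kcnd3 (0.98 ± 0.38), Kcnn2 (0.63 ± 0.24), Kcnh1 (-0.77 ± 0.37) and Kcnh7 (-0.75 ± 0.25). Without hippocampus unit 0, 3 of 33 members tested were called lower, where 1.78% of 5999 genes were called, and without cortex unit 0, 1 of 24, where 1.33% of 4652 genes were called. Astrocyte-like nuclei gave no called member of 7 tested and none by DESeq2, where edgeR called 4.89% of 2475 genes. At an unadjusted p under 0.05 (edgeR) stood 1 member, again with no share of all genes to set it against. That 1 was Kcnn2, at 280, 262, 278 and 243 in hippocampal and 249, 58.9, 150 and 87.1 in cortical astrocyte-like nuclei (0.82 ± 0.30), with cortex unit 0 inside the hippocampal range. Without cortex unit 0, 1 of 8 members tested was called higher, where 7.94% of 2618 genes were called, and without hippocampus unit 0, 1 of 9, where 6.51% of 2704 genes were called. Kcnk1, whose astrocyte-like level was over 3 times that of the next main class, had 361, 382, 386 and 426 in hippocampus and 284, 206, 501 and 305 in cortex (0.36 ± 0.25).

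The interaction tested whether the regional difference in inhibitory nuclei departed from that in excitatory nuclei. Of 48 members tested 6 were called, and 3.66% of 9939 genes, 1.23% higher and 2.43% lower. Among the called members, the regional log2 fold change was lower in inhibitory than in excitatory nuclei for Kcnd2 (by -1.59 ± 0.39), Kcnip2 (-1.40 ± 0.36), Kcnk1 (-1.14 ± 0.31) and Kcnab1 (-1.06 ± 0.32), and higher for Kcnt1 (0.88 ± 0.27). Kcnd2 had 40.7, 66.5, 51.0 and 31.5 in hippocampal inhibitory nuclei and 64.3, 51.5, 56.9 and 75.4 in cortical ones, which overlap, while its excitatory units were apart between regions. DESeq2 called 2 members, Kcnip2 among them, and 1.58% of genes, and the fit with no block called 1 member, none of the 5 named here, and 1.25% of genes. Leaving out 1 unit ended the call of Kcnd2 (cortex 0, -1.35, or hippocampus 3, -1.36), of Kcnk1 (cortex 1, -0.97, or hippocampus 3, -0.95), of Kcnab1 (any unit but hippocampus 0, -1.13 to -0.90) and of Kcnt1 (cortex 0 or 3 or hippocampus 1, 2 or 3, 0.56 to 0.87). With no filter on low counts Kcnt1 was at 0.84 ± 0.28 (edgeR adjusted p = 0.121), and with no block Kcnip2 was at -1.45 ± 0.38 (edgeR adjusted p = 0.0558).

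**Figure D5:**
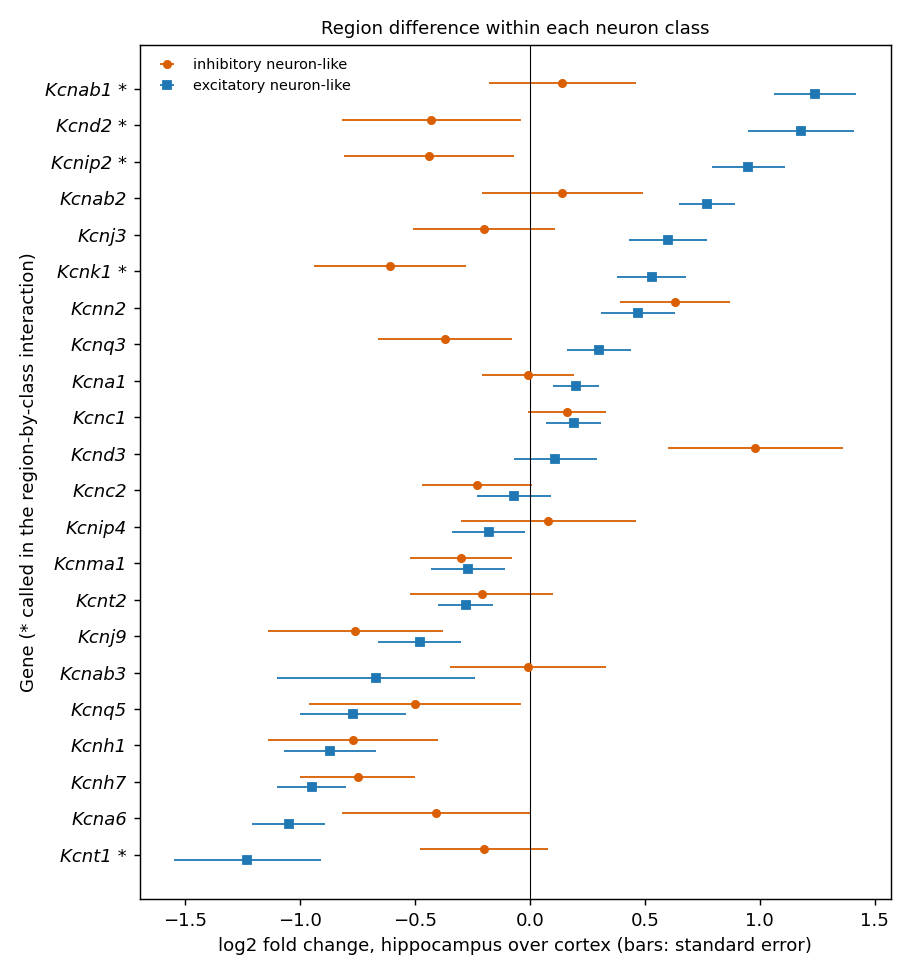
Log2 fold change of hippocampus over cortex with its standard error for 22 members tested in both neuron classes, inhibitory neuron-like above and excitatory neuron-like below for each gene. Kcnab1, Kcnd2, Kcnip2 and Kcnk1 lie further right in excitatory nuclei, and Kcnt1 further left.

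Genes of proteins that bind or place potassium channels, or that carry the related hyperpolarization-activated current, formed a list of 24. Of the 20 tested over all nuclei 2 rose and 2 fell in hippocampus, beside 17.7% of all genes called. Dpp6, an extracellular partner of Kcnd channels, rose by 0.95 ± 0.11, with 192 ± 20.1 in hippocampal units against 98.7 ± 7.64 in cortical units, and its relative Dpp10 fell by 1.47 ± 0.25, with 37.8 ± 20.7 in hippocampal against 110 ± 5.99 in cortical units (SD, n = 4). Lgi1, a secreted synaptic protein that acts on Kcna1 channels, rose by 0.60 ± 0.13, and its receptor Adam22 fell by 0.41 ± 0.09. In excitatory nuclei Dpp6, Lgi1 and Dpp10 went the same way (1.18 ± 0.14, 0.86 ± 0.14 and -1.98 ± 0.46), and Adam23 fell by 0.47 ± 0.11, of 19 tested, beside 16.2% of all genes called. In inhibitory nuclei none of 14 was called, beside 0.408% of all genes. In astrocyte-like nuclei, where 4.89% of all genes were called, 1 of 6 was called, Lgi1 (0.93 ± 0.28). That call was lost in 12 of 18 alternatives, among them DESeq2 and the removal of any 1 unit but cortex 0 (0.78 to 1.01), and Lgi1 was at 0.43 ± 0.37 with doublet calls removed. In the interaction 2 of 19 were called, beside 3.66% of all genes. These were Dpp10 at 1.98 ± 0.35 and Pex5l, which places hyperpolarization-activated channels, at -1.15 ± 0.36. DESeq2 and the fit with no block called neither, and Pex5l lost its call in 13 of 17 alternatives.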

How the data were processed

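Single-nucleus RNA was measured in 10 libraries by DroNc-seq. The values are raw counts of UMIs, one row a gene and one column a nucleus, as the authors deposited them. The submitters' processing notes name STAR, Seurat and mm10 with no roles. The collapsing of UMIs, the treatment of introns and of strand are not stated in any source at hand. With 36 members overlapping another annotated gene, 8 of them a protein-coding one, reads of such pairs may be mixed. The prefix of a column name gave its library, and 1689 columns whose prefix matches no label were not used.

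Clusters (scanpy 1.11.5, leidenalg 0.10.2, resolution 2.0, 2000 variable genes, 40 components, 20 neighbours, no Kcn gene) were named from marker lists. A class needed a mean relative marker level of 0.45, a margin of 0.15 and 3 supporting markers, and these thresholds were set after the data were read. Doublet calls against simulated pairs (1539 nuclei, 13.24%) stayed in and were removed in an alternative. Raw counts were summed per unit and class (at least 20 nuclei) and tested with edgeR 4.0.16 in R 4.3.3 (TMM, filterByExpr, quasi-likelihood, Benjamini-Hochberg over all genes); DESeq2 1.42.0 was an alternative. Printed levels are plain CPM, and log2 fold changes come from the fit. The test was checked on simulated counts. Intervals for few UMIs are exact and cover counting error only. Named members were called with separate units and a mean of at least 20 CPM, or had the most UMIs of a subfamily, or were 3 times above the next class with 30 UMIs; others are named once or by their call. Positions are from GENCODE M21 (GRCm38). The members, lists and rules were chosen with earlier results of these data known. Results of 3 members are not reported here, though they stay in the fits and counts.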

Additional observations from a re-analysis of the deposited data

Results flagged for a closer look

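In 7 of 88 groups of 4 units 1 unit stood far from the other 3; chance alone gives about 1 in 20. Unit 0 was the one apart in 4 of them. Kcnt1 was 132 CPM in hippocampus unit 0, against 80.8 to 89.1 in the other hippocampus units, and Kcnh7 was 292 in excitatory nuclei of hippocampus unit 0, against 181 to 187. Kcnd2 was 49.9 in cortex unit 0, against 64.6 to 66.9 in the other cortex units, and Kcnip2 was 90.0 in excitatory nuclei of cortex unit 0, against 57.5 to 61.4. In dentate granule-like nuclei Kcnd3 was 44.2 in unit 2, against 57.5 to 60.2, and Kcnab2 was 72.2 in unit 1, against 95.8 to 98.1. In CA1-like nuclei Kcnc4 was 10.2 in unit 3 and 0 in the others, which rests on 2 UMIs.

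The regional difference was called different between neuron classes for 5 members given here, by the interaction term of edgeR. Inhibitory minus excitatory, it was -1.59 for Kcnd2 (adjusted p = 0.00309), -1.40 for Kcnip2 (0.00499), -1.14 for Kcnk1 (0.011), -1.06 for Kcnab1 (0.029) and 0.88 for Kcnt1 (0.0417) on the log2 scale. With no replicate block none of these 5 was called, and DESeq2 called Kcnip2 of the 5. Leaving out 1 unit ended the call of Kcnab1 in 7 of 8 cases, of Kcnt1 in 5, of Kcnd2 in 2, of Kcnk1 in 2 and of Kcnip2 in none.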

How the results depend on the processing

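Of 828 values of 53 called results named by rule, under the alternatives run, 777 kept direction and call. In 51 the direction held and the call was lost, and none reversed; 41 of the 53 kept the call throughout. The rule took only called results with separate units and a mean of at least 20 CPM, which favours stable ones. Called results outside the rule, such as Kcnj9 and Kcnma1 between regions, are not counted here, and their lost calls are given above. An alternative with no adjusted p for a member was not counted. Counts of called members moved by over 1.5 times in these cases, and the cause was not tested. In excitatory nuclei 18 became 32 with title numbers 1 to 3 only (33% of all genes called). In inhibitory nuclei 0 became 2 with no filter on low counts (0.403% of genes), 3 with numbers 1 to 3 only (3.79%) and 0 to 3 when 1 unit was left out. In astrocyte-like nuclei 0 became 1 of 62 tested with no filter (0.641%), 1 of 4 with numbers 1 to 3 only (11.2%), 11 of 18 at resolution 1.0 (21.7%), 1 of 5 at resolution 4.0 (9.28%) and 0 to 1 when 1 unit was left out. In the interaction 6 became 2 by DESeq2 (1.58%), 1 with no replicate block (1.25%), 3 at resolution 1.0 (1.83%) and 2 to 8 when 1 unit was left out. Between dentate granule-like and CA1-like nuclei 19 became 11 by DESeq2 (11%). Numbers 1 to 3 for the class contrasts, a minimum of 650 UMIs and the removal of thalamic-like and midbrain-like nuclei were chosen after seeing the data. Same-numbered units of the regions correlated by 0.428 for number 0 and by 0.017 to 0.097 for the others, and hippocampus units 1 to 3 each correlated best with a cortex unit of another number, so the numbers were not taken as pairs. With the number as a replicate block 26 members were called in all nuclei (24% of genes) and 26 in excitatory nuclei (24.1%). In inhibitory and astrocyte-like nuclei 26 and 7 of 64 members passed the filter on low counts.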
